A study of Mus musculus with 10 samples.

Results

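ATAC-seq marks accessible chromatin by where a transposase can insert sequencing adapters, and 9 antiviral interferon-stimulated genes were followed through it in Myc-CaP cells, a mouse prostate cancer line. The genes were Ifit1, Ifit2, Ifit3, Isg15, Uba7, Rsad2, Oasl2, Mx2 and Bst2, taken as a named list. Every called interval that overlapped one of them or the 10 kb on either side (GENCODE M21, mm10) was kept. Intervals of the 5 deposited lists that overlapped by 1 bp were merged, which left 48 regions around the 9 genes of 211107 regions in all. Because the windows of Ifit2 and Ifit3 overlap, 3 of the 48 regions belong to both genes, which makes 51 pairs of gene and region.

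The study had 10 libraries in 5 groups of 2, all from the same line (strain FVB/NJ, male) and all taken at 48 h. Ctrl cells received no treatment. IFNγ cells received interferon-γ, labelled 1000 pg, which the study's methods give per ml. Oxali cells received oxaliplatin at 2 µM, Cispl cells received cisplatin at 2 µM, and Oxali + IFNγ cells received oxaliplatin at 2 µM with the same amount of interferon-γ. The authors pooled both libraries of a group before calling peaks, so each group is 1 list, no standard deviation exists and no difference could be tested against the spread between replicates. One cell line also limits the groups as a model, since no other prostate cells and no tumour tissue were in these lists.

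The level of a region is the pileup of reads at its highest summit divided by the genome background of the list, which is proportional to the depth of the list. That background was 12.1 reads in Ctrl, 9.62 in IFNγ, 11.3 in Oxali, 13.8 in Cispl and 12.9 in Oxali + IFNγ, so the IFNγ list had 79.3% and the Cispl list 113% of the Ctrl depth. A region absent from a list was not called there, which does not mean that it held no reads. The lowest pileup of any region was 21 reads in Ctrl, 18 in IFNγ and 26 in Cispl, whose list ends at a −log10 p of 2.99 where the others reach 2.00. Intervals on ratios are 95% exact binomial intervals on the summit reads and cover counting error only. Of the prostate epithelial marker genes, the start sites of Krt8, Krt18, Hoxb13 and Foxa1 were called in Ctrl, while those of Epcam and Cdh1 were not. Of 8 marker genes of leukocytes, endothelium and fibroblasts, only Pdgfra had a start site called in Ctrl, at a level of 11.9, and Adgre1 had one called in Cispl alone, at 2.18.

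Interferons bind receptors that activate JAK kinases and STAT factors. Type I interferon acts largely through the interferon-stimulated response element (ISRE), which is bound by a complex that holds IRF9, and IFNγ acts largely through the gamma-activated site (GAS). The genes switched on this way include effectors that bind viral RNA, modify proteins or hold virus particles at the cell surface, and tumour cells can express the same set after DNA damage.

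The 5 promoters that hold an ISRE core are shown first, with a site in the start regions of Oasl2 and Mx2, so that the summits given later can be read against them. They are from RefSeq and GRCm38, the assembly of mm10, written 5′ to 3′. Capitals mark matches to the ISRE core GAAANNGAA, the GAS TTCNNNGAA, the NF-κB motif GGGANTTCC or the AP-1 motif TGANTCA on either strand, and overlapping matches run together. The RefSeq table held 8 of the 9 promoters (not Mx2). The promoter stretches follow the strand of the gene and run from 180 bases (145 for Ifit1) to 41 bases before the RefSeq start.
Ifit1 promoter, chr19:34640744-34640848, plus strand: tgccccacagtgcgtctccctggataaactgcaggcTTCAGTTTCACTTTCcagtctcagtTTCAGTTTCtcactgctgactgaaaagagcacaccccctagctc
Ifit3 promoter, chr19:34583349-34583488, plus strand: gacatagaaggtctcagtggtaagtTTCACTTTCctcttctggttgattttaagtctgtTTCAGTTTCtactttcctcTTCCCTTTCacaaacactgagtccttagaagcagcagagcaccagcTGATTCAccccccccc
Isg15 promoter, chr4:156200859-156200998, minus strand: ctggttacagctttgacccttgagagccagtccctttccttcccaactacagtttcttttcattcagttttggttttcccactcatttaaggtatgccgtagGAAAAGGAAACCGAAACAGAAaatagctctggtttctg
Rsad2 promoter, chr12:26456493-26456632, minus strand: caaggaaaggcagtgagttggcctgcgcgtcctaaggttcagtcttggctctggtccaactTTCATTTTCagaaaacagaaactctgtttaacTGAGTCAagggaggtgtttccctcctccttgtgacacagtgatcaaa
Bst2 promoter, chr8:71537513-71537652, minus strand: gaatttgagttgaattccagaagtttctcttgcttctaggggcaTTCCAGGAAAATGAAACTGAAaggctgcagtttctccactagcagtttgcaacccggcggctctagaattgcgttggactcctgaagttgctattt
Oasl2 start-region site, chr5:114897460-114897488, plus strand: tccctgcagtTTCACTTTCaattcttgtc
Mx2 start-region site, chr16:97535134-97535162, plus strand: ccagagaaatGAAAGTGAAactaagtagg

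In the RefSeq promoters (250 bases before to 50 after the start), the ISRE core matched 3 times in Ifit1, Ifit3 and Isg15, 2 times in Bst2 and 1 time in Rsad2. The first bases of the Ifit1 matches lay at −109, −103 and −84 from the RefSeq start, those of Ifit3 at −155, −121 and −102, and those of Isg15 at −78, −72 and −66. The Rsad2 match began at −119 and the Bst2 matches at −130 and −124, the latter running on from a GAS match at −136. No ISRE core match was found in the same window of Ifit2, Uba7 or Oasl2. Of all 32851 RefSeq promoters, 8.56% held an ISRE core and 8.30% a GAS match. Since Oasl2 and Mx2 had their ISRE cores away from the promoter window or without a promoter entry, short sites are shown for them. The summit of the Oasl2 start region falls in an untranslated exon and has 2 ISRE cores within 100 bases. The nearer one, which is printed, begins 534 bases downstream of the GENCODE start, and its middle lies 9 bases from the summit. The Mx2 core begins at −939 from the principal GENCODE start, 35 bases from the summit. The annotated Mx2 gene begins upstream of that principal start, at chr16:97535308, which is nearer to the core.

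As over all merged regions, more regions around the 9 genes were called in the 3 lists with a platinum drug than in Ctrl or IFNγ. Of the 48 regions, 24 were called in Ctrl, 27 in IFNγ, 37 in Oxali, 39 in Cispl and 38 in Oxali + IFNγ. As shares, these were 50.0% in Ctrl against 52.4% of all merged regions, 56.2% in IFNγ against 50.8%, 77.1% in Oxali against 70.0%, 81.2% in Cispl against 77.4% and 79.2% in Oxali + IFNγ against 79.1%. In all 5 lists 21 of the 48 regions were called, against 85377 of all 211107 merged regions. In 1 list 11 of the 48 were called, of which Cispl held 6, and the shares of such regions over the genome were not counted.

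A region was gained when it passed a q-value of 0.01 in the treated list and had no called interval in Ctrl, and lost in the mirror case. With Oxali 14 of the 48 regions were gained (29.2%) against 21.4% of all merged regions, and 2 were lost against 4.59%. Cispl gave 15 gained regions (31.2%) against 27.9% and 1 lost region against 3.09%. With IFNγ 4 regions were gained (8.33%) against 5.74% and 2 were lost against 7.81%. Oxali + IFNγ gave 16 gained regions (33.3%) against 29.2% and 2 lost regions against 3.91%. The members' shares were thus near the background for each treatment. All 4 comparisons use the same Ctrl list. With genes extended by 5 kb instead, the gained count was 8 for both Oxali and Oxali + IFNγ, and with the 100000 best regions of each list it was 7 for Cispl.

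**Figure D1:**
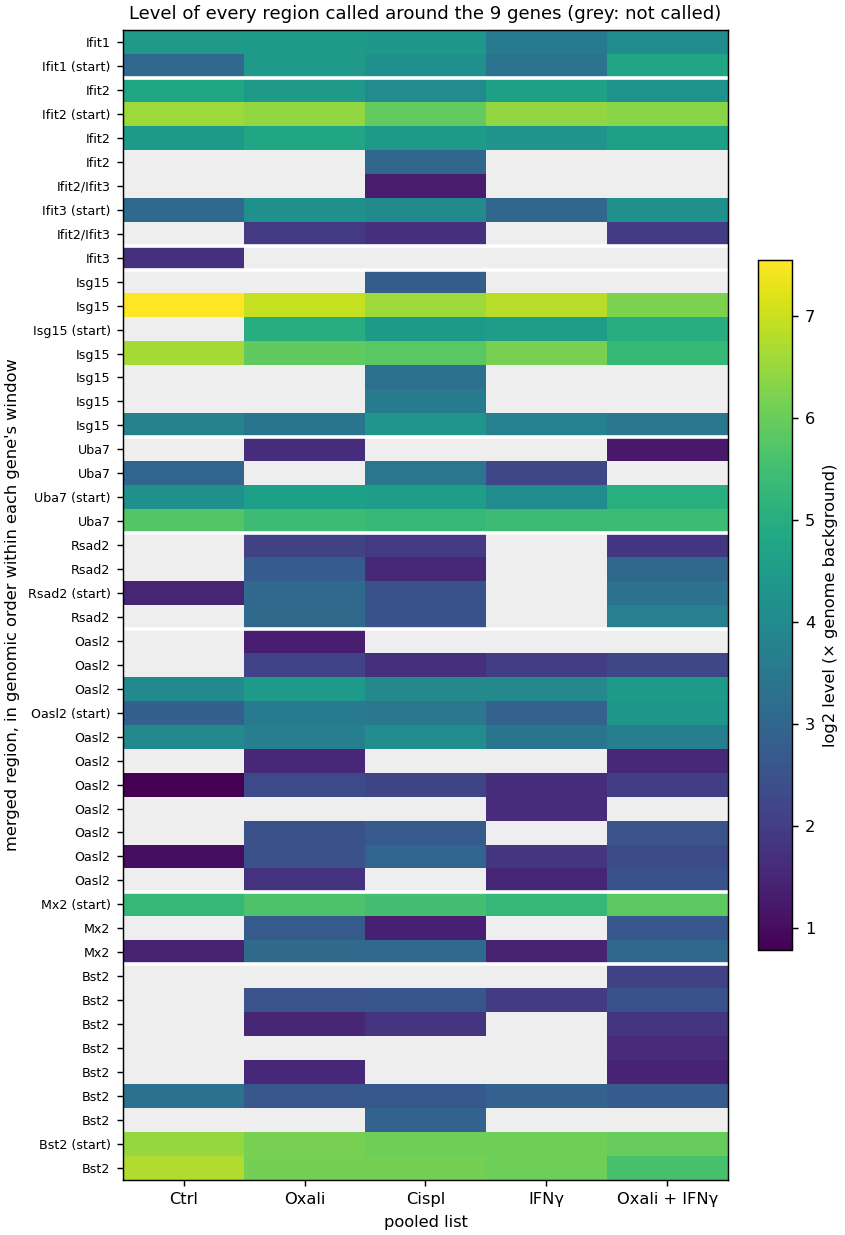
Each row is 1 of the 48 merged regions around the 9 genes, in genomic order within a gene, each column is 1 pooled list, and colour gives the log2 level over the genome background (grey, not called). Calls number 24 in Ctrl and 27 in IFNγ against 37 to 39 in the 3 platinum lists, a split that all merged regions share. The start regions of Ifit2 and Bst2 are bright in every list.

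The start-site region of a gene is the merged region within 1 kb of its principal transcript start that lies nearest to it. All 9 genes had one, called in all 5 lists for 7 of them. Isg15 lacked it in Ctrl and Rsad2 lacked it in IFNγ. The members fell into those with a start region at a high level in untreated cells (Ifit2, Bst2 and Mx2) and those that started low (Ifit1, Ifit3, Uba7, Rsad2 and Oasl2).

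The Ifit genes encode tetratricopeptide proteins that bind viral RNA, and 3 of them sit in a cluster on chromosome 19. The Ifit1 start region (chr19:34639889-34641555), which also covers the start of its neighbour Ifit1bl2, had a level of 8.57 in Ctrl, 10.3 in IFNγ, 21.5 in Oxali, 18.0 in Cispl and 27.3 in Oxali + IFNγ. The platinum lists stood apart from Ctrl and IFNγ, and the combination was the highest. Against Ctrl the ratio was 1.20 with IFNγ (0.903 to 1.60), 2.51 with Oxali (95% interval, 1.98 to 3.18), 2.10 with Cispl (1.67 to 2.67) and 3.18 with Oxali + IFNγ (2.55 to 4.00). The summits lay from −103 to −81 relative to the GENCODE start, which lies slightly upstream of the RefSeq start that the cores above are counted from. Those of the 3 platinum lists fell within the first cores, while those of Ctrl and IFNγ lay just upstream of them. A second region of the Ifit1 window, in an intron of Ifit1bl2, did not share the order, with levels of 21.3 in Ctrl, 12.0 in IFNγ, 22.4 in Oxali, 21.2 in Cispl and 16.9 in Oxali + IFNγ.

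Ifit3 gave the same order of platinum over other lists as Ifit1. Its start region (chr19:34582480-34583895) had levels of 8.65 in Ctrl, 8.11 in IFNγ, 18.0 in Oxali, 16.1 in Cispl and 18.1 in Oxali + IFNγ. The ratio to Ctrl was 0.937 with IFNγ (0.690 to 1.27), 2.08 with Oxali (1.64 to 2.66), 1.86 with Cispl (1.47 to 2.38) and 2.10 with Oxali + IFNγ (1.66 to 2.66). The summits lay from −642 to −613 relative to the start, so the printed Ifit3 promoter lies within the region but not at its summit, and none of the ISRE cores lies within 100 bases of it. An intron of Ifit3 held a region (chr19:34586000-34586382) called in the 3 platinum lists and in neither Ctrl nor IFNγ, with levels of 3.81 in Oxali, 3.34 in Cispl and 3.87 in Oxali + IFNγ. A weak region 5.63 kb downstream of the Ifit3 start was called in Ctrl alone, at a level of 3.30.

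Ifit2 differed from both neighbours. Its start region (chr19:34550301-34551517) was at a level of 94.2 in Ctrl, 86.8 in IFNγ, 87.9 in Oxali, 60.7 in Cispl and 80.9 in Oxali + IFNγ. Cispl was the lowest, with a ratio to Ctrl of 0.644 (0.589 to 0.705), while Oxali stood at 0.934 (0.857 to 1.02). That ratio for Cispl was nevertheless like the median over all start-site regions given below, and relative to that median it is 1.00. A region 1.47 kb inside the gene was called in all lists at levels from 19.6 to 27.9. The 1 region gained in the Ifit2 window with Oxali and with Oxali + IFNγ was the Ifit3 intron region, and 2 more were called in Cispl alone, at levels of 8.06 and 2.47.

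Isg15 encodes a ubiquitin-like protein that is conjugated to other proteins, and Uba7 encodes the enzyme that activates it. The Isg15 start region (chr4:156200704-156201039) was not called in Ctrl and had levels of 23.3 in IFNγ, 31.8 in Oxali, 22.0 in Cispl and 31.8 in Oxali + IFNγ. It was the only start region of the 9 genes that was gained, and it was gained with every treatment, at a −log10 q from 12.9 in IFNγ to 84.4 in Oxali + IFNγ. It lies between the strong start regions of Agrn and AW011738, and its local background was 126 to 183 reads, against 9.62 to 13.8 over the genome. At the Agrn region the local background was 148 reads in Ctrl and 86.1 to 124 in the treated lists, and a level for Isg15 in Ctrl cannot be given. Both neighbours were lower in the treated lists. The Agrn region had levels of 187 in Ctrl, 113 in IFNγ, 124 in Oxali, 93.6 in Cispl and 74.9 in Oxali + IFNγ. At AW011738 the level was 100 in Ctrl, 72.2 in IFNγ, 59.6 in Oxali, 56.3 in Cispl and 39.6 in Oxali + IFNγ. The Isg15 region was thus called in the 4 lists in which both flanks were lower than in Ctrl, and the part of the flanks in the call was not tested. A further 3 regions of the Isg15 window were called in Cispl alone, at levels of 6.90, 9.52 and 11.8.

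The Uba7 start region (chr9:107974666-107976316) had levels of 18.0 in Ctrl, 16.7 in IFNγ, 24.4 in Oxali, 23.9 in Cispl and 33.0 in Oxali + IFNγ. The combination was the highest, and its ratio to Ctrl was 1.84 (1.56 to 2.17), though 1.36 by the fold over local background, which ends the call. Oxali, at 1.36 (1.13 to 1.63), and Cispl, at 1.33 (1.12 to 1.59), stayed under the 1.5-fold used to call a difference, and Cispl was at 0.894 by the fold over local background. In an untranslated exon of the neighbour Traip, 3.68 kb upstream of Uba7, a region (chr9:107971596-107972260) was called in Ctrl at a level of 7.99, in Cispl at 10.9 and in IFNγ at 4.68, and in neither list with oxaliplatin. It was the lost region of highest −log10 q among the members, at 37.4 in Ctrl, and the Cispl value was above that of Ctrl. A region 7.95 kb upstream of Uba7 was called only in Oxali, at 3.19, and in Oxali + IFNγ, at 2.40.

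Rsad2 encodes viperin, a radical SAM enzyme that makes a chain-terminating nucleotide for viral polymerases. Its window held 4 regions, all called in the 3 platinum lists, 1 of them called in Ctrl and none in IFNγ. The start region (chr12:26455832-26456724) had levels of 2.80 in Ctrl, 8.52 in Oxali, 5.67 in Cispl and 9.92 in Oxali + IFNγ. Its ratio to Ctrl was 3.04 with Oxali (2.04 to 4.64), 2.02 with Cispl (1.34 to 3.12) and 3.54 with Oxali + IFNγ (2.41 to 5.33), the highest of the 8 genes with a ratio for Oxali and for the combination. By the fold over local background Rsad2 was at 1.90 with the combination, below Ifit1 at 2.05. These ratios rest on 34 reads in Ctrl, which is why their intervals are wide.

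A region 3.84 kb upstream of Rsad2, between it and Cmpk2 (chr12:26459914-26460554), had levels of 8.78 in Oxali, 5.59 in Cispl and 13.3 in Oxali + IFNγ and was not called in Ctrl or IFNγ. Its −log10 q of 89.0 in Oxali + IFNγ was the highest of all gained member regions. The ratio of the combination to Oxali was 1.51 (1.17 to 1.95), but 1.08 by the fold over local background. An intron region (chr12:26454683-26455084) gave 6.74, 2.91 and 8.45 in Oxali, Cispl and Oxali + IFNγ, and a region in the untranslated end of the gene, 12.2 kb downstream of the start, gave 4.35, 3.85 and 3.64. All 3 hold ISRE cores within 100 bp of the summit. The first 2, which were the highest in Oxali and in Oxali + IFNγ, are printed around their summits, and the intron also holds NF-κB and AP-1 matches.
Rsad2 upstream region, chr12:26460191-26460391, plus strand: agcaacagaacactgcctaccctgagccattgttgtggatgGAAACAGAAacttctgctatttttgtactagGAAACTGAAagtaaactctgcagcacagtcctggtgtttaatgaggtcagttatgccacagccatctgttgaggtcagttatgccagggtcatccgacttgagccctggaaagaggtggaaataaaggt
Rsad2 intron region, chr12:26454843-26455010, plus strand: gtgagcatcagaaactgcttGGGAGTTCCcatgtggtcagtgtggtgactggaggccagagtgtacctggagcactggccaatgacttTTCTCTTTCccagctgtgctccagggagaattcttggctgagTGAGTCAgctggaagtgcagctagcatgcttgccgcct

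Oasl2 belongs to the oligoadenylate synthetase family, which responds to double-stranded RNA. Its start region (chr5:114896990-114898022) had levels of 7.41 in Ctrl, 7.48 in IFNγ, 12.0 in Oxali, 11.3 in Cispl and 20.8 in Oxali + IFNγ. It was the member with the widest step from oxaliplatin alone to the combination, at a ratio of 1.74 (1.41 to 2.16). Against Ctrl the ratio was 1.01 with IFNγ (0.730 to 1.39), 1.62 with Oxali (1.23 to 2.13), 1.52 with Cispl (1.16 to 1.99) and 2.81 with Oxali + IFNγ (2.21 to 3.61). Relative to the median of the regions called in all 5 lists, the Oxali and Cispl ratios were 1.46 and 1.45, under the threshold.

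The Oasl2 window held 11 regions, the most of any member, 5 of them called in every list. Between Oasl2 and its paralog Oasl1, a region (chr5:114918317-114918871) was called in Oxali, Cispl and Oxali + IFNγ at levels of 5.50, 6.54 and 5.73 and in neither Ctrl nor IFNγ. A region 4.61 kb upstream (chr5:114892152-114892427) was called in all 4 treated lists, at levels from 3.34 to 4.65, and one 25.0 kb downstream (chr5:114921800-114922066) at 3.46 in Oxali, 2.81 in IFNγ and 5.58 in Oxali + IFNγ. A region 23.1 kb downstream of the start (chr5:114919356-114920139), called in all 5 lists, had the widest range among the regions called in every list, from 2.06 in Ctrl to 7.99 in Cispl, a ratio of 3.88 (2.50 to 6.26). Its levels in Oxali, IFNγ and Oxali + IFNγ were 5.50, 3.64 and 4.96. In Ctrl it was weak, with a −log10 q of 0.946.

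**Figure D2:**
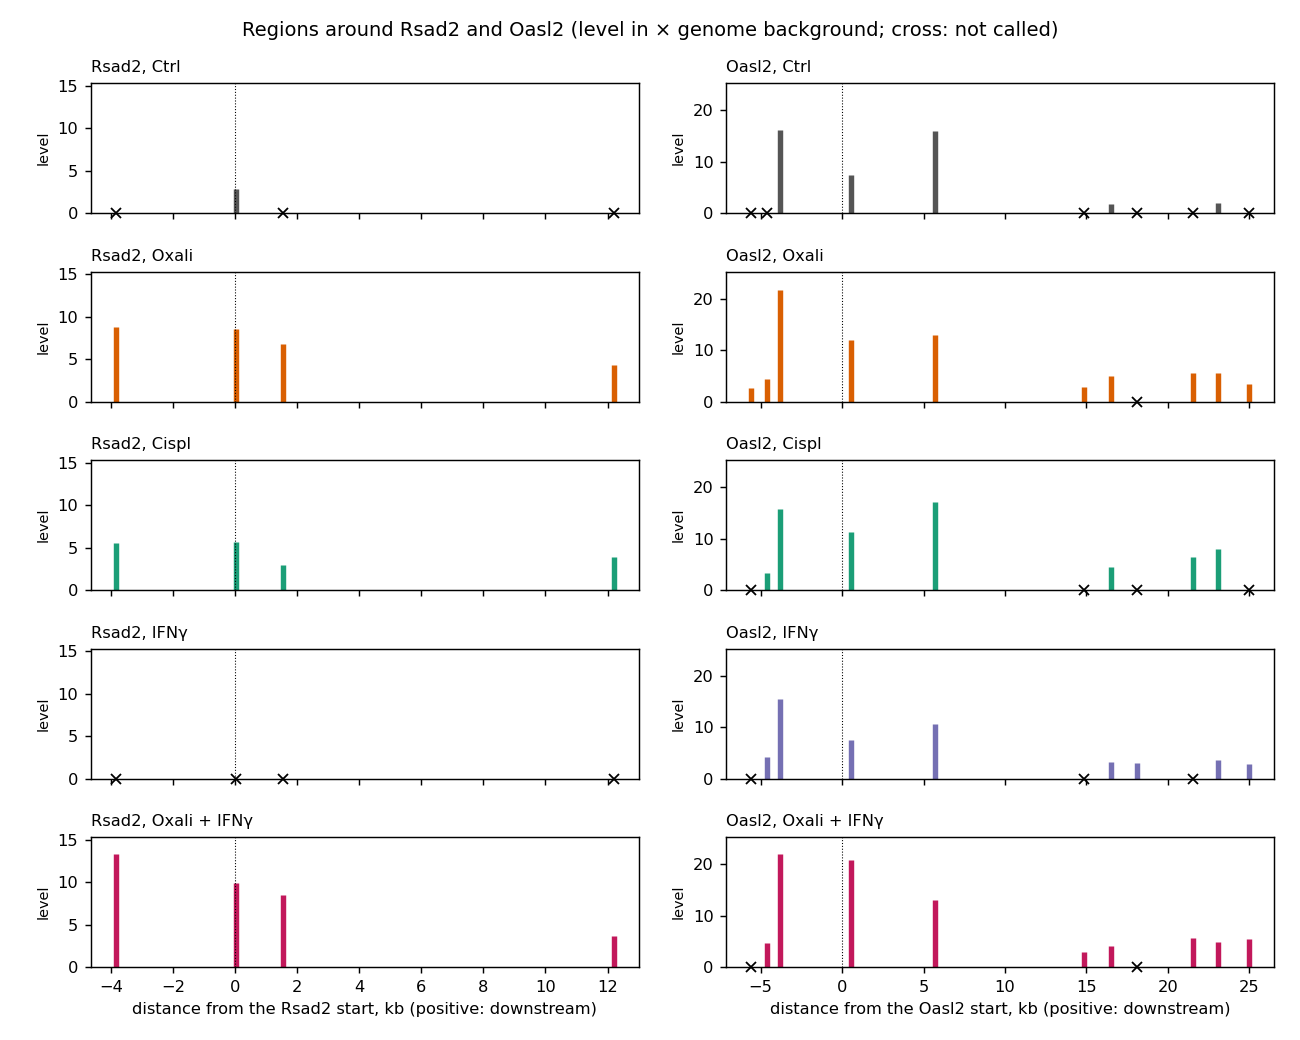
Bars give the level of each merged region (in multiples of the genome background) against the distance of its highest summit from the transcript start in kb, for Rsad2 on the left and Oasl2 on the right, with 1 row for each pooled list and a cross where the region was not called. Rsad2 has 1 called region in Ctrl, none in IFNγ and 4 in each platinum list, with the upstream one at 13.3 in Oxali + IFNγ.

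Mx2 encodes a dynamin-like GTPase and is annotated in GENCODE as a polymorphic pseudogene. Its start region (chr16:97534564-97536472) had levels of 39.0 in Ctrl, 38.8 in IFNγ, 50.2 in Oxali, 45.8 in Cispl and 58.7 in Oxali + IFNγ. The ratio to Ctrl was 1.29 with Oxali (1.14 to 1.46), 1.17 with Cispl (1.04 to 1.33) and 1.51 with Oxali + IFNγ (1.34 to 1.69), while the fold over local background, the authors' own ratio, turned the direction of all 3, to 0.900 with Oxali, 0.883 with Cispl and 0.872 with the combination. Further along, a region over the untranslated end of Mx2 (chr16:97560243-97561834) was called only in the platinum lists, at 6.48 in Oxali, 2.62 in Cispl and 6.12 in Oxali + IFNγ. An exon of the neighbour Tmprss2 (chr16:97568728-97569819) had levels of 2.72 in Ctrl, 2.70 in IFNγ, 8.69 in Oxali, 8.57 in Cispl and 8.29 in Oxali + IFNγ, with a ratio to Ctrl of 3.20 for Oxali (2.14 to 4.90) and 3.15 for Cispl (2.13 to 4.79).

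Bst2 encodes tetherin, which holds budding virus at the cell surface, and its start region (chr8:71536864-71538163) was the only one that was highest in Ctrl apart from that of Ifit2. Its levels were 89.4 in Ctrl, 67.0 in IFNγ, 71.1 in Oxali, 66.6 in Cispl and 63.2 in Oxali + IFNγ. The ratios to Ctrl ran from 0.707 (0.644 to 0.774) with Oxali + IFNγ to 0.795 (0.725 to 0.872) with Oxali, none of them 1.5-fold. Relative to the median of all start-site regions, the direction turned for every treatment, with ratios from 1.09 with Oxali to 1.29 with Oxali + IFNγ. The neighbouring start region of Mvb12a was lower by more, from 108 in Ctrl to 66.3 in IFNγ, 70.8 in Oxali, 69.8 in Cispl and 47.7 in Oxali + IFNγ. A group of 5 weak regions lay 8.87 to 10.5 kb downstream of the Bst2 start. None of them was called in Ctrl, and all but 1 were called in 1 to 3 lists, each with platinum. The strongest (chr8:71527071-71527812) was called in all 4 treated lists at levels of 3.95 in IFNγ, 5.77 in Oxali, 6.03 in Cispl and 5.66 in Oxali + IFNγ. The next (chr8:71527963-71528205) was at 2.84 in Oxali, 3.56 in Cispl and 3.49 in Oxali + IFNγ.

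**Figure D3:**
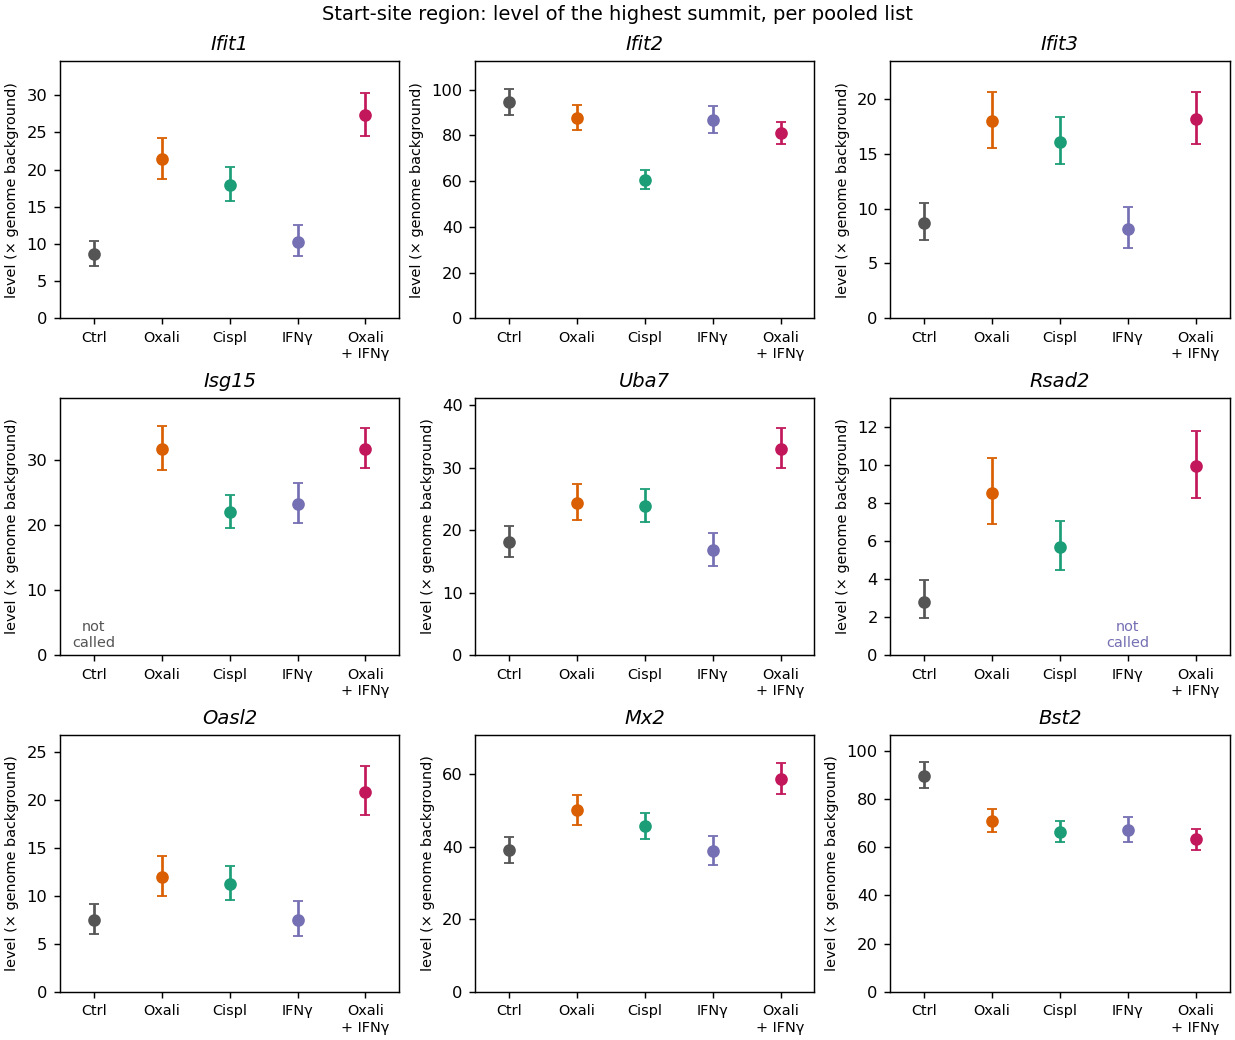
Points give the level of the start-site region of each gene in each pooled list, in multiples of the genome background, with 95% Poisson intervals on the summit reads. Ifit1, Ifit3, Uba7, Rsad2, Oasl2 and Mx2 are higher in the 3 platinum lists than in Ctrl. By the fold over local background Mx2 and, with Cispl, Uba7 are not. Bst2 runs from 89.4 in Ctrl to 63.2 in Oxali + IFNγ, a direction that turns relative to the median of all start-site regions.

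A start-site ratio was called when it reached 1.5-fold and its counting interval excluded 1. With Oxali, 4 of the 8 members with a start region in both lists were called higher (Ifit1, Ifit3, Rsad2 and Oasl2) against 4.48% of start-site regions of all protein-coding genes, and 0 were called lower against 31.1%. With Cispl the same 4 genes were called higher against 3.96%, and Ifit2 was called lower against 56.4%. With IFNγ 0 of 7 were called higher against 0.313% and 0 were called lower against 44.2%. With Oxali + IFNγ 6 of 8 were called higher (Ifit1, Ifit3, Uba7, Rsad2, Oasl2 and Mx2) against 5.02%, and 0 were called lower against 69.6%. Relative to the median of the regions called in all 5 lists, 3 members were at least 1.5-fold higher with Oxali and 3 with Cispl (both without Oasl2), and the combination had 5 higher, without Mx2 at 1.37, and 1 lower, Bst2 at 0.641. Relative to the median of all start-site regions, 6 members were at least 1.5-fold higher with Oxali, 6 with Cispl, 1 with IFNγ (Ifit1) and 7 with the combination. Start-site regions in general were lower in the treated lists, with a median ratio to Ctrl of 0.683 over 10542 regions with IFNγ, 0.732 with Oxali, 0.643 with Cispl and 0.546 with the combination. The member medians were 0.937 with IFNγ, 1.49 with Oxali, 1.43 with Cispl and 1.97 with the combination.

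The level in untreated cells moves with these ratios over the genome. Among start-site regions with a Ctrl level under 20, a class chosen after its values were seen, 2.33% were called higher with IFNγ, 29.6% with Oxali, 27.1% with Cispl and 33.1% with the combination. The 5 members in that class were Ifit1, Ifit3, Uba7, Rsad2 and Oasl2, of which 4 were called higher with either drug alone and 5 with the combination. The fold over local background called fewer, with 3 of 8 members at or above 1.5 for Oxali (Ifit1, Ifit3 and Rsad2), 2 for Cispl (Ifit1 and Rsad2) and 4 for Oxali + IFNγ (Ifit1, Ifit3, Rsad2 and Oasl2). The summit of the Oasl2 start region lay 781 bases from the start in Oxali, against 539 to 560 in the other lists, and taking summits within 150 bp of each other left the calls above as they were, with Oasl2 at 1.56 in Oxali.

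**Figure D4:**
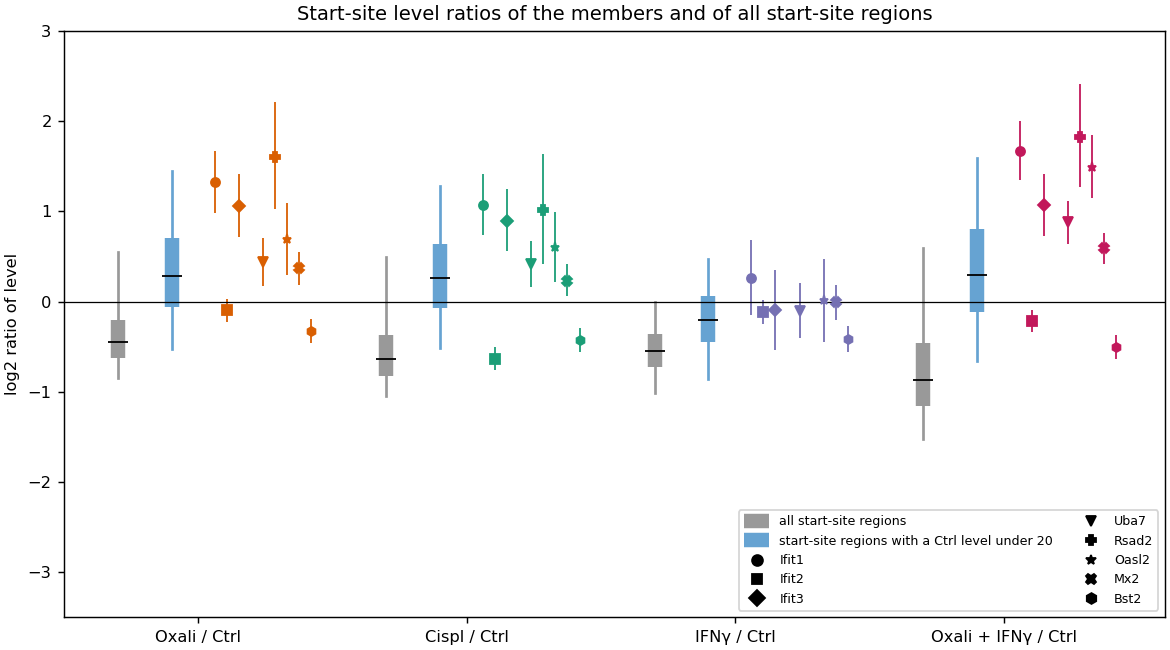
The log2 ratio of start-site level to Ctrl is given for each treatment. Symbols are the members with 95% counting intervals (Isg15 has no Ctrl call), grey bars are all start-site regions and blue bars those with a Ctrl level under 20, with the median as a dash, the middle 50% as the thick bar and the 5th to 95th percentiles as the line. The grey medians lie at −0.55 for IFNγ, −0.45 for Oxali, −0.64 for Cispl and −0.87 for the combination. On this scale Ifit1, Ifit3, Uba7, Rsad2, Oasl2 and Mx2 lie above 0 for every platinum treatment.

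To ask what IFNγ added to oxaliplatin, the combination was set against each agent. Against Oxali, 1 of 9 members (Oasl2) was called higher against 0.710% of start-site regions and 0 were called lower against 23.6%. The median ratio of the combination to Oxali over 11119 start-site regions was 0.758, and the member ratios here are not scaled to it. By the fold over local background the Oasl2 ratio was 1.40, under the threshold. The ratios for the others lay between 0.889 for Bst2 and 1.35 for Uba7 (1.16 to 1.58), and Ifit1 stood at 1.27 (1.08 to 1.50). Against IFNγ, 5 of 8 were called higher (Ifit1, Ifit3, Uba7, Oasl2 and Mx2) against 6.81%, and 0 were called lower against 17.2%. The Mx2 ratio of 1.52 became 1.19 relative to the regions called in all 5 lists and 1.02 by the fold over local background, which ends its call. The Rsad2 start region has no ratio there, because it was not called with IFNγ.

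Cisplatin and oxaliplatin are both platinum(II) compounds that crosslink DNA. Cisplatin carries ammine ligands and chloride leaving groups, whereas oxaliplatin carries a diaminocyclohexane ligand and an oxalate leaving group. At the same dose of 2 µM and the same 48 h, 9 pairs of start-site levels were compared, with no test possible between single lists. All 9 ratios of Cispl to Oxali were below 1, from 0.665 for Rsad2 to 0.980 for Uba7. Relative to the median of the regions called in all 5 lists, those of Uba7 (1.07), Oasl2 (1.03) and Bst2 (1.03) were above 1, and by the fold over local background that of Oasl2 was 1.18. Rsad2 (0.487 to 0.907) was the one member called lower against 2.62% of start-site regions, and 0 were called higher against 1.23%. That call was lost at 0.729 relative to the regions called in all 5 lists and at 0.946 by the fold over local background. Ifit2, at 0.690 (0.629 to 0.757), and Isg15, at 0.691 (0.591 to 0.808), had intervals below 1 but were not 1.5-fold lower. For the other 6 members the interval held 1. It ran from 0.700 to 1.01 for Ifit1, from 0.742 to 1.19 for Oasl2 and from 0.851 to 1.03 for Bst2, and differences within each gene's interval were not detectable at this depth. The median over all 11014 start-site regions in both lists was 0.873. Away from the start sites some regions were also called between Cispl and Oxali, and the share called over all such regions was not counted. The Rsad2 intron region was lower, at 0.431 of Oxali (0.286 to 0.640), and so was the region at the untranslated end of Mx2, at 0.404 (0.263 to 0.610). The region upstream of Rsad2 was at 0.637 (0.467 to 0.867), a call lost at 0.698 relative to the regions called in all 5 lists and at 0.746 by the fold over local background. A region 4.57 kb upstream of Isg15 was higher, with levels of 19.9 in Cispl and 10.6 in Oxali and a ratio of 1.87 (1.50 to 2.34), which was 1.48 by the fold over local background, under the threshold.

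**Figure D5:**
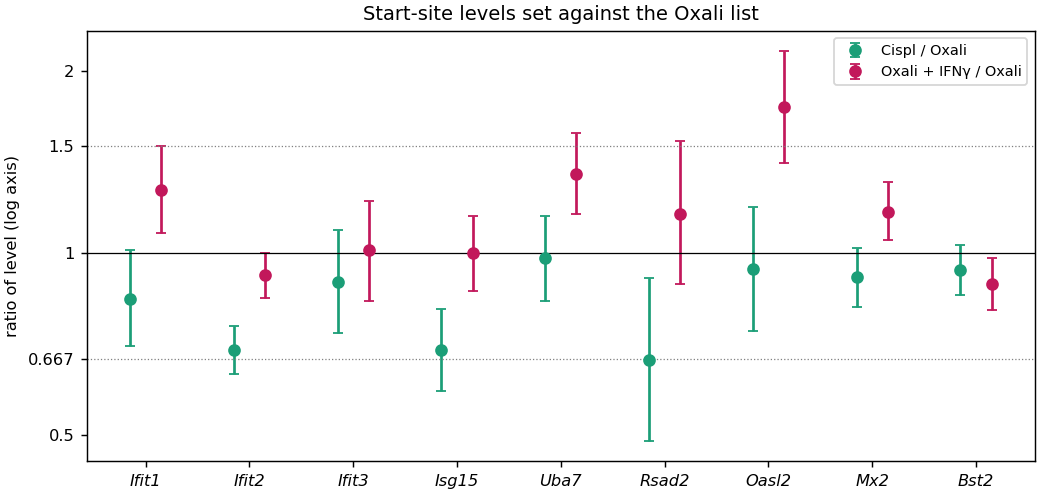
Ratios of start-site level to the Oxali list are given for the 9 genes on a log axis, for Cispl and for Oxali + IFNγ, with 95% counting intervals, and dotted lines mark 1.5-fold in either direction. All 9 Cispl points lie below 1 on this scale, though 3 lie above it relative to the regions called in all 5 lists, and Oasl2 with Oxali + IFNγ lies at 1.74.

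Sequence elements were then counted within 100 bp of the summits. The ISRE core was present in 11 of the 48 member regions (22.9%), against 5.56% of all merged regions and 3.57% of start-site regions. The 11 were the start regions of Ifit1, Isg15, Oasl2 and Mx2, 3 of the 4 Rsad2 regions (all but the start region), 1 region upstream of Oasl2, the start regions of the neighbours AW011738 and Mvb12a, and 1 region upstream of Isg15. The GAS was present in 1 (2.08%) against 6.05% of all regions, the NF-κB motif in 1 (2.08%) against 0.972%, and the AP-1 motif in 10 (20.8%) against 21.0%. Among regions gained with Oxali, 4 of 14 held an ISRE core against 6.44% of all regions gained with Oxali. With Cispl it was 4 of 15 against 6.10%, with IFNγ 1 of 4 against 4.46%, and with Oxali + IFNγ 4 of 16 against 7.27%. The 4 regions were the same each time, the Isg15 start region and 3 regions of Rsad2, and the 1 with IFNγ was the Isg15 start region. These counts are thus not separate observations. The region in the Ifit3 intron held an AP-1 match.
Ifit3 intron region, chr19:34586118-34586318, plus strand: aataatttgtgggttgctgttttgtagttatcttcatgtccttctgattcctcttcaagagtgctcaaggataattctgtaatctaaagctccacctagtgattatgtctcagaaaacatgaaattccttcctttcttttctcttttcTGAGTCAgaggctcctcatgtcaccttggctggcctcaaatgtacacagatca

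A second list of 30 genes of the interferon pathway (sensors, signalling factors and further effectors) was taken beside the 9. Of the 21 with a start region in both lists, 0 were called higher and 3 lower with IFNγ, 3 and 3 with Oxali, 2 and 5 with Cispl, and 4 and 7 with the combination. Without the 3 genes that share a region with a member, these counts were the same, of 20. Over all start-site regions the shares called higher and lower were, as above, 0.313% and 44.2% with IFNγ, 4.48% and 31.1% with Oxali, 3.96% and 56.4% with Cispl, and 5.02% and 69.6% with the combination. The median ratios of the 21 genes to Ctrl were 0.793 with IFNγ, 0.967 with Oxali, 0.886 with Cispl and 0.838 with the combination. These were below those of the members. They leave out genes with no start called in Ctrl, among them Mx1, Oas1a and Ifi44, whose starts were called in all 3 platinum lists. The genes were also not matched to the members for Ctrl level, which was 104 at Stat2 and 142 at Eif2ak2. Oas3, another oligoadenylate synthetase, had levels of 12.9 in Ctrl, 11.2 in IFNγ, 43.4 in Oxali, 31.2 in Cispl and 48.0 in Oxali + IFNγ. Ifit3b, a paralog of Ifit3, gave 7.66 in Ctrl, 7.17 in IFNγ, 16.7 in Oxali, 16.0 in Cispl and 20.1 in Oxali + IFNγ. Reads that fit near-identical paralogs equally well can be lost at the quality filter, so the values of the Ifit and Oas genes are uncertain to that extent. The start region of Stat2, which encodes a transcription factor of the pathway, had a ratio to Ctrl with Oxali + IFNγ of 0.488 (0.443 to 0.536), near the median of 0.546 over all start-site regions.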

How the data were processed

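Per the labels and the study's methods, reads were trimmed with cutadapt, aligned to mm10 with Bowtie2 2.2.8 and filtered with SAMtools, duplicates and mitochondrial reads were removed, and the 2 libraries of each group were pooled before peaks were called with MACS2 2.1.0. Bowtie2 could report several placements of a read before the quality filter, which can bear on paralogs. The deposited fold of each peak is the ratio, computed by the authors with MACS2, of pileup plus 1 to local background plus 1. Further columns deposited with it hold the −log10 p-value of that pileup under a Poisson model and its −log10 q-value.

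From these, the whole-number pileup and the background were solved for each peak (100% solved). Summits of one interval were joined, lists were merged at 1 bp, and the level was the highest pileup over the genome background. Ratios carry 95% exact conditional binomial intervals and are called at 1.5-fold. Because highest summits are compared, a ratio takes the best summit of each list. The methods were tested on simulated data. Python 3.11.15, pandas 2.3.3 and SciPy 1.17.1 were used. The named items were the start region of each member, up to 3 gained or lost regions of highest −log10 q and the region called in all 5 lists with the widest range of levels. The members and lists were chosen with earlier results of these data known. Alternatives were a stricter q-value, a common p-value, a 5 kb window, other scalings, equal numbers of regions and overlaps taken before merging. No columns of other samples were present (0). Single values of some genes of the marker and pathway lists are not reported here.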

Additional observations from a re-analysis of the deposited data

How the results depend on the processing

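No paired analysis was possible because each deposited list already joins both libraries of its group, and leaving out a replicate was not run for the same reason. Of 17 counts and medians, those that moved did so as follows. At a −log10 p of at least 3 in all lists, gained regions with IFNγ numbered 7 against 4. With the 100000 best regions of each list, gained regions numbered 7 with Cispl and 8 with Oxali + IFNγ against 15 and 16, 1 region was lost with IFNγ against 2, 25 regions were called with Oxali + IFNγ against 38, and the median log2 level ratio with Oxali was −0.10 against 0.21. With genes extended by 5 kb, 8 regions were gained with Oxali and 8 with Oxali + IFNγ, against 14 and 16. With the fold over local background, the median log2 ratio was −0.08 with Oxali and −0.18 with Cispl against 0.21 and 0.10. The cause of these moves was not tested, beyond the fewer regions and narrower windows that the settings leave. A q-value of at most 1e-05, gains judged before merging, and scaling to the regions called in all lists kept every count within 1.5 times and every median within its counting error.

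Among the called start-site ratios to Ctrl, Mx2 with Oxali + IFNγ was 0.872 by the fold over local background, against 1.51, in the opposite direction. Ifit2 with Cispl was 1.00, no difference, relative to the median of all start-site regions, against 0.644, an alternative chosen after seeing the data. Summits within 150 bp of each other, also chosen after seeing the data, left all 31 start-site ratios to Ctrl on the same side of 1. Regions called in all lists had median log2 ratios to Ctrl of −0.25 with IFNγ, 0.15 with Oxali, 0.07 with Cispl and 0.14 with the combination, and relative to them 27 of 31 ratios stayed on their side of 1. By the fold over local background 26 did, and relative to the median of all start-site regions, 21. Among calls between treated lists given above, those that ended under a scaling include Rsad2 (Cispl against Oxali, 0.729 and 0.946), Mx2 (combination against IFNγ, 1.19 and 1.02) and, by the fold over local background, Oasl2 (combination against Oxali, 1.40), the region upstream of Rsad2 (combination against Oxali, 1.08) and that upstream of Isg15 (Cispl against Oxali, 1.48). Weak regions are limited by the depth and lowest −log10 p of each list.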

Other observations

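Over the 48 regions around the 9 genes, 7 (14.6%) were called in all 3 platinum lists and in neither Ctrl nor IFNγ, against 11.1% of all merged regions. The 7 include the Ifit3 intron, the untranslated end of Mx2, the region between Oasl2 and Oasl1 and 3 regions of Rsad2. Calls in any platinum list and in neither other list made up 39.6% of the member regions, against 40.5% of all merged regions. The Tmprss2 exon next to Mx2 was not among them, since it was called in every list, but its levels were 2.72 and 2.70 in Ctrl and IFNγ and 8.29 to 8.69 in the platinum lists.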
